A study of Mus musculus with 6 samples.

Results

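The genes described here are the mitochondrial ribosomal protein genes, those whose symbols start with Mrpl or Mrps followed by a digit. Of the 24421 symbols in the count table, 77 met this rule, 48 with a large subunit symbol (Mrpl) and 29 with a small subunit symbol (Mrps). All 77 were found in the gene annotation and all had enough counts to be tested, among 15988 genes in all. The smallest count of any of them in any sample was 708 and the largest 7610.

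RNA was measured by mRNA sequencing in 6 samples of cochlear explants from wild-type mice, 3 control and 3 neomycin-treated. Cochleae were taken at postnatal day 2, kept in culture for 12 h, exposed for 6 h to neomycin at 1 mM in the neomycin group, and then held in culture for 5 more days with 10 μM EdU, a label of DNA synthesis. Each sample was a pool of 6 to 8 cochleae. Both groups share the explant culture and the EdU. The labels give the same neomycin protocol for all samples and name the control only as control, so explants without the drug are assumed for the control group. The labels do not tie the pools to separate litters or cultures, and the p-values measure the spread between these pools.

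Mitochondria carry their own ribosome, which makes the few proteins encoded in mitochondrial DNA, all of them membrane subunits of the respiratory chain and ATP synthase. Its RNAs come from mitochondrial DNA, whereas all of its proteins are encoded in the nucleus, made in the cytosol and imported. The small subunit holds the mRNA and reads the codons, and the large subunit joins the amino acids. Neomycin is an aminoglycoside, a class of antibiotics that binds the decoding site of the bacterial small subunit RNA. Variants of the mitochondrial 12S rRNA, its counterpart in the mitochondrial small subunit, are known to raise sensitivity of the ear to aminoglycosides. The comparison of neomycin with control asks how the mRNAs of this ribosome stood some days after the drug, and whether those of its subunits moved together.

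The total counts ran from 50471116 to 66068108 per sample. As a check of the treatment, 21 of 23 hair cell (HC) marker genes fell after neomycin and 0 rose, and their summed level went from between 932 and 1071 CPM (read counts put on 1 library size with the TMM factors of edgeR) in the control samples to between 296 and 374 CPM after neomycin. Of 17 supporting cell (SC) markers, 3 rose and 5 fell, with sums of 12012 to 13946 CPM in control and 15611 to 18451 CPM after neomycin. Most of these sums and of their rise came from Epyc, Tectb and S100a1. Their means went from 5531, 4230 and 1561 CPM in control to 6385, 6445 and 2144 CPM after neomycin. Of 12 macrophage markers, 5 rose and 1 fell, with sums of 113 to 136 CPM and 137 to 174 CPM. For neurons, Schwann cells, mesenchyme and endothelium the mean sum after neomycin was 0.827, 1.06, 1.05 and 0.985 times that of control, with 1, 1, 2 and 0 markers rising and 4, 1, 2 and 4 falling. Most of the endothelial sum came from Emcn, and without it the other 5 markers went from between 37.2 and 47.8 CPM to between 17.8 and 19.8 CPM, 0.421 times the control mean. Without Syt1, the most abundant neuronal marker, the ratio for neurons was 0.680. Of 5 erythroid genes, 4 had at most 3 counts in every sample. Of 18 proliferation genes 0 rose and 5 fell. The part of this shift in cell makeup in the values below was not tested, and in bulk samples a change in the number of cells of a type cannot be told apart from a change in RNA per cell.

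All 77 genes had a log2 fold change above 0 after neomycin, a sign shared by 49.5% of all genes tested. In the quasi-likelihood test of edgeR, with Benjamini-Hochberg adjustment over all genes, 54 of the 77 rose at an adjusted p-value under 0.05, where 12.9% of all genes tested rose, and 0 fell, where 16.1% fell. The number with an unadjusted p-value under 0.05 and a lower level was also 0, and DESeq2 and limma-voom called 0 lower. The rises were small. The median log2 fold change (log2FC) was 0.29, against -0.0041 over all genes tested, and the range ran from 0.03 for Mrps18b to 0.65 for Mrpl54. Mrpl54 was the 1 gene past a fold change of 1.5 as well, a bar that 2.24% of all genes tested passed upward. In 63 of the 77 genes every neomycin sample lay above every control sample, which held for 21.0% of all genes tested. The count of 54 depended on single samples. It was 30 without control replicate 1, 31 without control replicate 2, 23 without neomycin replicate 2 and 27 without neomycin replicate 3. The number of all genes that rose went down too, from 2058 to 1441, 1062, 1007 and 1200 in the same fits. Every log2FC of the members stayed above 0 except that of Mrps18b without neomycin replicate 2.

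**Figure D1:**
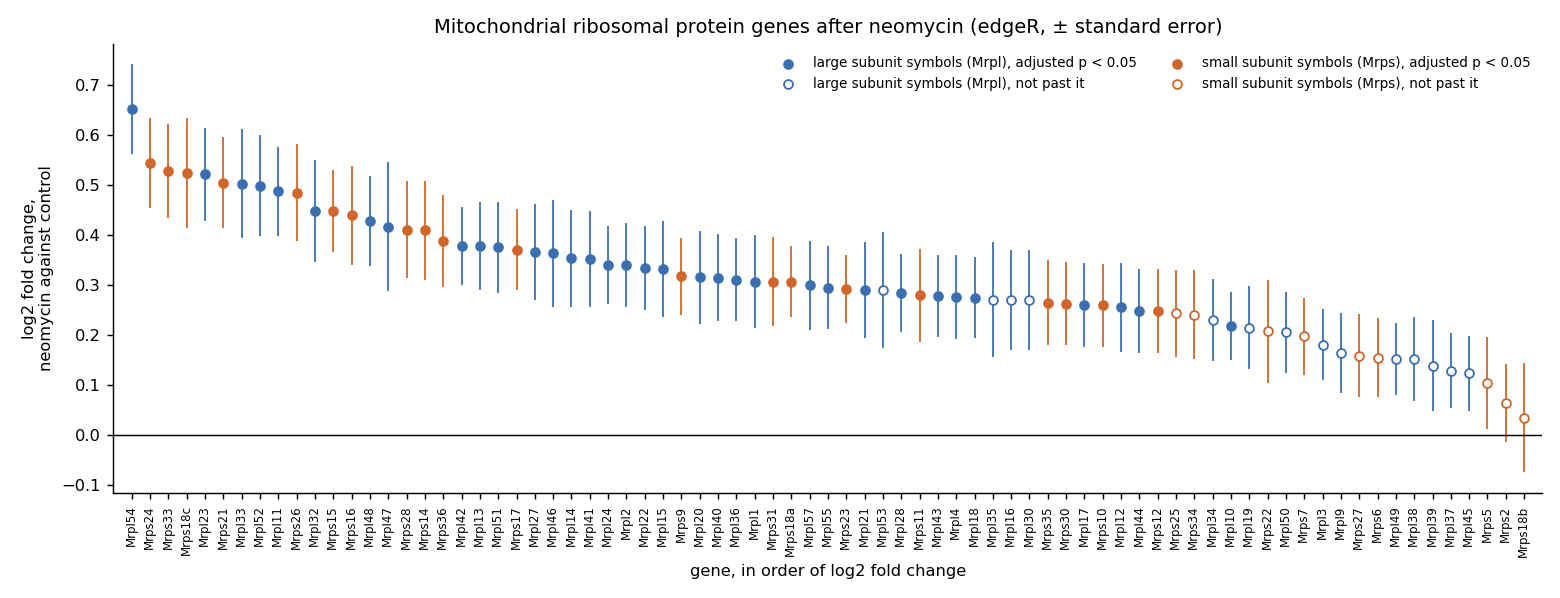
Log2 fold change of each of the 77 mitochondrial ribosomal protein genes (vertical axis; bars are standard errors) in order of size (horizontal axis), blue for large and orange for small subunit symbols, filled where the adjusted p-value was under 0.05 (edgeR). All points lie above 0, from 0.65 for Mrpl54 to 0.03 for Mrps18b, and both colours are spread along the whole order.

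The summed level of the 77 genes was 2940, 3071 and 3368 CPM in control replicates 1, 2 and 3, and 3604, 3958 and 4090 CPM in neomycin replicates 1, 2 and 3. The groups did not overlap, and the mean sum was 1.24 times as high after neomycin. Taken as the mean of log2 CPM relative to the control mean, the samples stood at -0.08, -0.02 and 0.10 in control and at 0.21, 0.34 and 0.38 after neomycin. The genes moved together within the groups too. Control replicate 3 was the highest control in 66 of the 77 genes, control replicate 1 the lowest in 50, and neomycin replicate 1 was the lowest neomycin sample in 65.

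Transcript length moved with these values in every sample. The members are short, with a median transcript length of 1223 bases against 2626.5 bases over all genes tested, and 48 of the 77 belong to the shortest of 5 equal classes of tested genes by length. Set against the control mean, the other genes of that class had a median log2 CPM of -0.08, -0.02 and 0.11 in control replicates 1, 2 and 3 and of 0.18, 0.29 and 0.33 in neomycin replicates 1, 2 and 3. The longest class stood at 0.09, 0.04 and -0.12 in control and at -0.18, -0.25 and -0.27 after neomycin. The short genes thus stood close to the mitochondrial ribosomal protein genes in all 6 samples, and the long genes ran the other way. Over all genes tested, the median log2FC by class of length was 0.26, 0.11, 0.00, -0.10 and -0.24, from the shortest to the longest class.

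**Figure D2:**
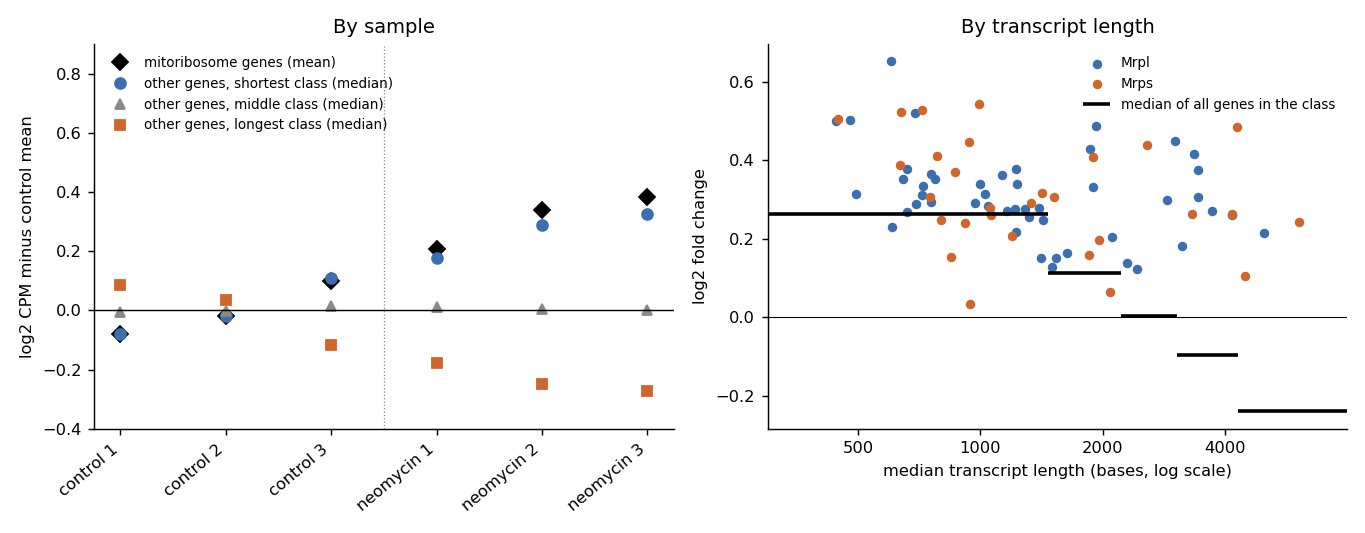
Left, log2 CPM relative to the control mean in each of the 6 samples, as the mean of the 77 mitochondrial ribosomal protein genes (diamonds) and as the median of the other genes in the shortest, middle and longest class of transcript length. Right, log2FC of each of the 77 genes against its median transcript length in bases (log axis), with black lines for the median of all tested genes in each class. The diamonds follow the shortest class across samples, and the members of the 3 longest classes lie above the line of their class.

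Beside genes of like length, the members had the higher medians. In the shortest class, 39 of 48 members rose (81.3%) against 1063 of 3125 other genes (34.0%), with median log2FC values of 0.31 and 0.26. These groups were not matched for expression level. In classes 2, 3, 4 and 5, where transcripts are longer, 5 of 12, 3 of 5, 7 of 9 and 0 of 3 members rose. Of all genes in these classes 16.3%, 7.43%, 3.94% and 2.05% rose. The medians of the members there were 0.20, 0.30, 0.27 and 0.21, against 0.11, 0.00, -0.10 and -0.24 for all genes. When the trend on length was removed from each sample, with the total exon length of each gene, 30 of the 77 rose, where 10.4% of all genes tested rose, and 0 fell, where 13.2% fell. The median log2FC was then 0.16 and 65 of the 77 were above 0. With the median length of coding transcripts in place of exon length, a choice made after the data were seen, 19 rose, where 7.89% of all genes rose, the median was 0.09, and 59 were above 0.

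The values of the large and the small subunit overlapped. Of the 48 Mrpl genes 34 rose, with a median log2FC of 0.30, and of the 29 Mrps genes 20 rose, with a median of 0.29. The mean log2 CPM of the Mrpl genes minus that of the Mrps genes was 0.25, 0.24 and 0.29 in the 3 controls and 0.24, 0.27 and 0.27 in the 3 neomycin samples. The group means were 0.258 ± 0.027 and 0.259 ± 0.019 (SD, n = 3 each), so the groups overlapped and their means differed by 0.0004. On the linear scale, the summed CPM of the Mrpl genes was 2.03, 2.02 and 2.07 times that of the Mrps genes in control and 1.99, 2.03 and 2.03 times after neomycin. Exon length correction moved the medians apart, to 0.10 for the Mrpl genes and 0.20 for the Mrps genes, and the transcript length correction did not, with 0.07 and 0.09. No p-value is given for these means, since the genes of a subunit are not replicates.

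**Figure D3:**
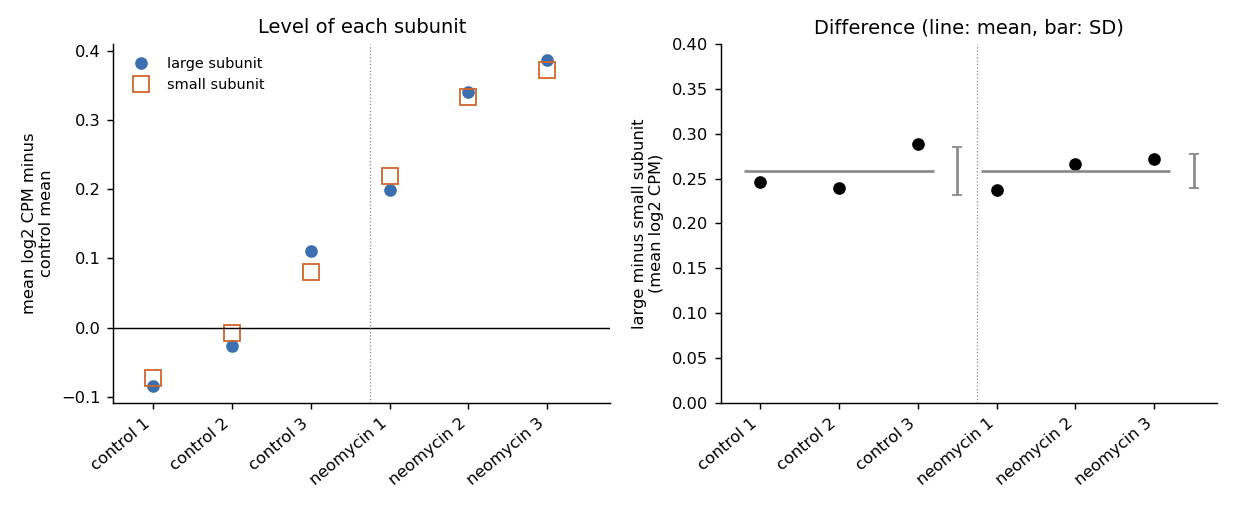
Left, mean log2 CPM of the large subunit genes (circles) and small subunit genes (squares) relative to their control mean, in each of the 6 samples. Right, the large subunit mean minus the small subunit mean in the same samples, with group means (lines) and SD (bars). Both subunits were higher in each neomycin sample than in each control sample, and the difference lay between 0.24 and 0.29 in all 6 samples.

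The symbols do not follow the structure in full. Mrps18a and Mrps30 encode proteins that sit in the large subunit of the mammalian mitochondrial ribosome, and Mrps36 encodes a component of the 2-oxoglutarate dehydrogenase complex. Mrps18a was at 35.9, 38.5 and 39.0 CPM in the control samples and at 45.5, 47.1 and 47.5 CPM after neomycin, a log2FC of 0.31 ± 0.07 (standard error; adjusted p = 0.00778). Mrps30 went from 33.2, 35.8 and 38.6 to 40.3, 43.5 and 45.3 CPM (0.26 ± 0.08, adjusted p = 0.0319). Mrps36 had 23.7, 21.4 and 21.9 CPM in control and 30.7, 26.3 and 30.8 CPM after neomycin (0.39 ± 0.09, adjusted p = 0.00853), and 3 annotated pseudogenes carry its name, so reads could have been lost or gained. In these 3 genes the groups did not overlap. Under exon and transcript length correction Mrps36 came to 0.10 and 0.03 and no longer passed (adjusted p = 0.551 and 0.881). Mrps18a passed at 0.27 in the first and had -0.02 in the second (adjusted p = 0.00827 and 0.886), and Mrps30 passed in both, at 0.36 and 0.33 (adjusted p = 0.00932 and 0.0137). Without these 3, 17 of 26 Mrps genes rose, with a median of 0.29.

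In the small subunit, the genes for proteins at the decoding centre and along the mRNA channel were spread over the range of the members. Mrps12, the counterpart of bacterial S12 at the decoding centre and the protein altered in many streptomycin-resistant bacteria, is encoded on chromosome 7 of mm10 from 28739641 to 28741820. It had 46.9, 46.5 and 53.2 CPM in control and 54.0, 56.4 and 63.5 CPM after neomycin, a log2FC of 0.25 ± 0.08 (adjusted p = 0.0429), and its groups did not overlap. Its value turned to -0.08 with exon length correction and to -0.06 with transcript length correction. Mrps5, the counterpart of S5 at the mRNA entrance, had 37.7, 35.1 and 41.0 CPM and then 41.8, 44.3 and 36.2 CPM (0.10 ± 0.09, adjusted p = 0.420), with overlapping groups. Mrps24, the counterpart of S3 in the mRNA channel, had the highest log2FC of all Mrps genes, with 35.3, 36.8 and 40.6 CPM in control and 48.2, 57.5 and 58.6 CPM after neomycin (0.54 ± 0.09, adjusted p = 0.00117). Urgcp overlaps its exons on the same strand, and reads from that gene could have been counted with it.

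Of 4 genes of the head and platform of the small subunit, 3 rose. Mrps7 and Mrps9, both in the head, had 52.6, 55.4 and 56.1 CPM and 40.8, 44.3 and 48.0 CPM in the control samples, in that order. After neomycin they had 57.6, 62.6 and 67.9 CPM and 53.0, 56.4 and 56.3 CPM. The log2FC was 0.20 ± 0.08 for Mrps7, which did not pass (adjusted p = 0.0708), and 0.32 ± 0.08 for Mrps9, which rose (adjusted p = 0.010). Mrps10, also in the head, had 26.5, 27.5 and 30.3 CPM and then 32.9, 33.0 and 35.1 CPM (0.26 ± 0.08, adjusted p = 0.0340). Mrps11, in the platform, had 29.1, 25.8 and 31.8 CPM and then 32.7, 36.7 and 35.9 CPM (0.28 ± 0.09, adjusted p = 0.0407). In all 4 genes the lowest neomycin sample was above the highest control sample. With exon length correction 2 of the 4 rose, Mrps9 at 0.39 and Mrps10 at 0.40, and with transcript length correction 0 rose, with values from 0.00832 for Mrps10 to 0.14 for Mrps9. Mrps11 and Mrpl46 lie on opposite strands and overlap each other, and with the strand setting of the counting not given in the sources used here reads from the shared stretch cannot be assigned to either.

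Bacterial S18 has 3 paralogs in this ribosome. Mrps18b, on chromosome 17 from 35910379 to 35916389, was the least changed gene of all 77, with 16.3, 18.2 and 16.5 CPM in control and 16.4, 20.1 and 15.9 CPM after neomycin, a log2FC of 0.03 ± 0.11 (adjusted p = 0.839) and overlapping groups. Mrps18c, on chromosome 5 from 100798627 to 100804471, rose from 21.2, 23.9 and 24.3 to 28.1, 33.9 and 37.8 CPM (0.52 ± 0.11, adjusted p = 0.00451) without overlap. Mrps18a, given above, lay between them before length correction. Mrps18c had 0.20 with exon length correction, below the 0.27 of Mrps18a, and 0.16 with transcript length correction, and passed in neither (adjusted p = 0.105 and 0.177). The differences between the paralogs were not tested.

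The other small subunit genes at the ends of the order were Mrps33, Mrps21 and Mrps2. Mrps33, a protein with no bacterial counterpart, rose from 32.0, 37.7 and 39.2 to 47.0, 54.4 and 55.5 CPM (0.53 ± 0.09, adjusted p = 0.00181). Mrps21, the counterpart of S21, rose from 64.7, 67.0 and 79.6 to 91.4, 102 and 106 CPM (0.50 ± 0.09, adjusted p = 0.00188). Under exon and transcript length correction Mrps33 passed at 0.30 and 0.20 (adjusted p = 0.00873 and 0.0462), and Mrps21 did not, at 0.13 and 0.09 (adjusted p = 0.147 and 0.280). Neither overlapped between groups, and Mrps21 was also the member with the highest level per length in control, at 158 CPM per kilobase of transcript against a median of 30.1 and a lowest value of 4.42 for Mrpl47. Mrps2, the counterpart of S2, had 25.3, 25.9 and 25.6 CPM in control and 27.1, 26.5 and 26.6 CPM after neomycin. Its samples did not overlap either, but its log2FC was 0.06 ± 0.08 (adjusted p = 0.567). By origin, 12 of the 17 Mrps genes with a bacterial counterpart and a place in the small subunit rose, with a median of 0.32, and 5 of the 9 without one, with a median of 0.26.

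The promoters of the members with the largest rises are shown as a description, with no link to the rises tested. They run from 250 bases before to 50 bases after the RefSeq start and come from the RefSeq promoter table on GRCm38.p6, which held 68 of the 77 genes. Mrpl54, the first in order, was not among them. Capitals mark letters that a search of both strands found for an ETS family motif (CCGGAAG), an NRF1 motif (GCGCATGC) or a YY1 motif (AAGATGGC), as the motif or its reverse complement. The factors of these motifs are known regulators of nuclear genes for mitochondria. The sequences lie at chr11:5707652-5707951 on the minus strand for Mrps24, chr6:39810887-39811186 on the minus strand for Mrps33 and chr5:100798509-100798808 on the plus strand for Mrps18c, each 5′ to 3′ as transcribed.
Mrps24: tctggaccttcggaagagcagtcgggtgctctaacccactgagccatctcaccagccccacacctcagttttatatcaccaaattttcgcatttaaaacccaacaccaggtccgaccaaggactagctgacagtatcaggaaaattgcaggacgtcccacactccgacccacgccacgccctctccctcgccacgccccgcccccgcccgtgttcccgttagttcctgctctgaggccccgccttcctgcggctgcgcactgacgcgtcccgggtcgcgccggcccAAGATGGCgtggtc
Mrps33: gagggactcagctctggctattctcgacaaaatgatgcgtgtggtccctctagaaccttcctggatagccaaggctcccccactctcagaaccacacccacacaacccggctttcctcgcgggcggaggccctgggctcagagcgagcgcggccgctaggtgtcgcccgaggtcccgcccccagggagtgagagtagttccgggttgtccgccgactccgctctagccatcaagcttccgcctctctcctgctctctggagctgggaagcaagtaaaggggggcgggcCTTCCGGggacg
Mrps18c: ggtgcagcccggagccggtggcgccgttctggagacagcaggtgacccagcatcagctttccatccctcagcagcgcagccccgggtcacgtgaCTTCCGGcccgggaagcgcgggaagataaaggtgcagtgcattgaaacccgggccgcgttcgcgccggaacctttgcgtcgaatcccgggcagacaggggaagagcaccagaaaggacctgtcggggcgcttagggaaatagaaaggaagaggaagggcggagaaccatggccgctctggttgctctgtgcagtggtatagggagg

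The Mrps24 window held the YY1 motif after the start, starting at position 36, and the Mrps33 and Mrps18c windows held the ETS motif, starting at position 38 after the start and at position 156 before it. Among the 68 promoters, 25 held the ETS letters (36.8%), 8 the NRF1 letters (11.8%) and 12 the YY1 letters (17.6%). In all 11958 tested genes with a promoter in the table the shares were 17.3%, 5.33% and 4.55%. The GC box letters GGGCGG, searched in the same way and not in capitals above, were in 34 of the 68 against 65.5% of tested genes, and CCAAT in 27 (39.7%) against 41.9%. Members with and without the ETS letters had median log2FC values of 0.30 and 0.29, and those with and without the YY1 letters 0.27 and 0.30. With NRF1 letters the median was 0.24 and without them 0.30. A match describes these letters in this window and is not a binding site.

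In the large subunit, the stalk genes rose. Mrpl12, the stalk protein that recruits translation factors, had the highest CPM of all 77, with 98.8, 103 and 117 CPM in control and 114, 129 and 138 CPM after neomycin, a log2FC of 0.25 ± 0.09 (adjusted p = 0.0497), and its groups overlapped. Mrpl10, which anchors the stalk, went from 51.2, 51.1 and 55.4 to 60.7, 60.8 and 61.8 CPM (0.22 ± 0.07, adjusted p = 0.0313). Mrpl11, at the base of the stalk on chromosome 19 from 4962147 to 4966999, rose from 39.8, 45.0 and 47.8 to 55.8, 64.5 and 65.5 CPM (0.49 ± 0.09, adjusted p = 0.00213). The groups of Mrpl10 and Mrpl11 did not overlap, and with transcript length correction Mrpl11 kept 0.39 while Mrpl10 came to -0.000325. Mrpl11 was the 1 stalk gene that passed under either length correction, and Mrpl12 had 0.00659 and 0.05 (adjusted p = 0.954 and 0.592).

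Around the peptidyl transferase centre, where peptide bonds form, 3 of 5 genes rose. Mrpl2, the counterpart of L2, had 29.5, 34.5 and 35.5 CPM in control and 41.6, 42.8 and 41.4 CPM after neomycin (0.34 ± 0.08, adjusted p = 0.0109). Mrpl27, whose bacterial counterpart reaches toward the centre, had 33.0, 32.2 and 35.0 CPM and then 38.0, 41.7 and 49.5 CPM (0.37 ± 0.10, adjusted p = 0.0144). Mrpl4, which also lines the start of the exit tunnel, had 37.5, 37.2 and 39.9 CPM and then 41.4, 46.9 and 50.4 CPM (0.28 ± 0.08, adjusted p = 0.0280). These 3 rose without overlap. Mrpl3 and Mrpl16 had log2FC values of 0.18 ± 0.07 and 0.27 ± 0.10 and did not pass (adjusted p = 0.0764 and 0.0579). Mrpl3 had 35.4, 33.9 and 35.6 CPM in control and 38.8, 39.6 and 40.6 CPM after neomycin, and Mrpl16 had 16.2, 20.4 and 18.8 CPM and then 22.0, 22.1 and 22.7 CPM, so neither overlapped between groups. The genes that passed changed with length correction. By exon and by transcript length, Mrpl2 had 0.04 and 0.08, Mrpl27 0.02 and 0.04, and Mrpl4 0.16 and 0.07, and none of them passed. Mrpl3 was then the 1 gene of the 5 that rose, at 0.28 and 0.23 (adjusted p = 0.0111 and 0.0254).

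Of the 7 genes at the tunnel through which the new chain leaves, 6 rose. Mrpl23 had the largest rise of them, from 53.4, 55.1 and 60.7 to 69.7, 85.6 and 87.5 CPM (0.52 ± 0.09, adjusted p = 0.00179), and 1 annotated pseudogene carries its name. Mrpl24, next to it at the exit, had 59.2, 59.5 and 67.4 CPM in control and 73.5, 83.8 and 78.3 CPM after neomycin (0.34 ± 0.08, adjusted p = 0.00775). Mrpl22, which lines the tunnel, had 28.0, 27.9 and 31.4 CPM and then 34.6, 36.8 and 38.6 CPM (0.33 ± 0.08, adjusted p = 0.0112). The groups of these 3 did not overlap. Mrpl17 had 63.7, 58.1 and 73.3 CPM in control and 78.1, 77.3 and 78.3 CPM after neomycin (0.26 ± 0.08, adjusted p = 0.0359). Mrpl44, a protein with no bacterial ribosomal counterpart, had 24.9, 27.5 and 28.9 CPM and then 32.0, 31.7 and 32.9 CPM (0.25 ± 0.08, adjusted p = 0.0423). Both stood above every control sample in each neomycin sample.

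The other genes of the exit differed in how their samples lay. Mrpl47, the counterpart of L29, rose from 14.3, 13.6 and 16.7 to 16.0, 21.9 and 21.5 CPM (0.42 ± 0.13, adjusted p = 0.0301), but its lowest neomycin sample was below its highest control sample. Mrpl45, which is thought to tie the ribosome to the inner membrane, was the 1 gene of the exit that did not pass, with 71.4, 76.4 and 83.1 CPM in control and 80.6, 85.2 and 85.6 CPM after neomycin (0.12 ± 0.07, adjusted p = 0.236) and overlapping groups. Of the 7 exit genes, 4 rose with exon length correction and 2 with transcript length correction, Mrpl17 and Mrpl47 in both. Mrpl17 then had 0.38 and 0.39 and Mrpl47 0.43 and 0.49. Mrpl23 kept 0.56 by exon length but had 0.18 by transcript length (adjusted p = 0.0587), and Mrpl24 had 0.19 and 0.12 (adjusted p = 0.0483 and 0.172). Mrpl22 came to -0.00356 and 0.00219 and Mrpl44 to 0.02 and 0.07, passing in neither.

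In the central protuberance, the crest that faces the small subunit, 4 of 5 genes rose. Mrpl48 had the largest rise of them, from 51.8, 51.2 and 60.9 to 68.5, 70.5 and 81.4 CPM (0.43 ± 0.09, adjusted p = 0.00473), with Rab6a overlapping it on the opposite strand and 1 annotated pseudogene under its name. Mrpl46 rose from 21.2, 21.7 and 25.5 to 25.6, 30.2 and 32.1 CPM (0.36 ± 0.11, adjusted p = 0.0236). Mrpl40 rose from 28.3, 30.2 and 32.7 to 34.7, 39.9 and 38.7 CPM (0.31 ± 0.09, adjusted p = 0.0179). None of these overlapped between groups. Mrpl18, the counterpart of the 5S rRNA binding protein L18, rose from 53.0, 54.9 and 63.7 to 66.1, 68.8 and 72.6 CPM (0.27 ± 0.08, adjusted p = 0.0252), also without overlap. Mrpl38 had 43.5, 41.8 and 48.9 CPM in control and 46.3, 49.2 and 53.6 CPM after neomycin (0.15 ± 0.08, adjusted p = 0.193) with overlap. Under each length correction Mrpl48 was the 1 gene of the 5 that rose, at 0.57 by exon and 0.32 by transcript length. In the same order Mrpl46 had 0.10 and 0.12, Mrpl40 0.10 and 0.05, and Mrpl18 0.00819 and 0.06, and these 3 did not pass.

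Mrpl54, a large subunit protein with no bacterial counterpart, had the largest log2FC of all members. Its gene lies on chromosome 10 of mm10 from 81264713 to 81266934, and no other annotated exon overlaps it. It had 39.2, 38.0 and 42.8 CPM in the control samples and 55.1, 64.4 and 69.0 CPM after neomycin, a log2FC of 0.65 ± 0.09 (adjusted p = 0.000361), and the lowest neomycin sample was well above the highest control sample. With either length correction its log2FC was 0.28, and it passed in both (adjusted p = 0.0104 and 0.00955). At the other end of the Mrpl genes, Mrpl37 had 34.7, 34.3 and 37.7 CPM and then 38.6, 38.9 and 39.2 CPM (0.13 ± 0.07, adjusted p = 0.211), without overlap. Mrpl39 had 36.4, 40.8 and 44.0 CPM and then 40.6, 48.3 and 44.4 CPM (0.14 ± 0.09, adjusted p = 0.274), with overlap. Of the 30 Mrpl genes with a bacterial counterpart 23 rose, with a median of 0.30, and of the 18 without one 11 rose, with a median of 0.29.

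**Figure D4:**
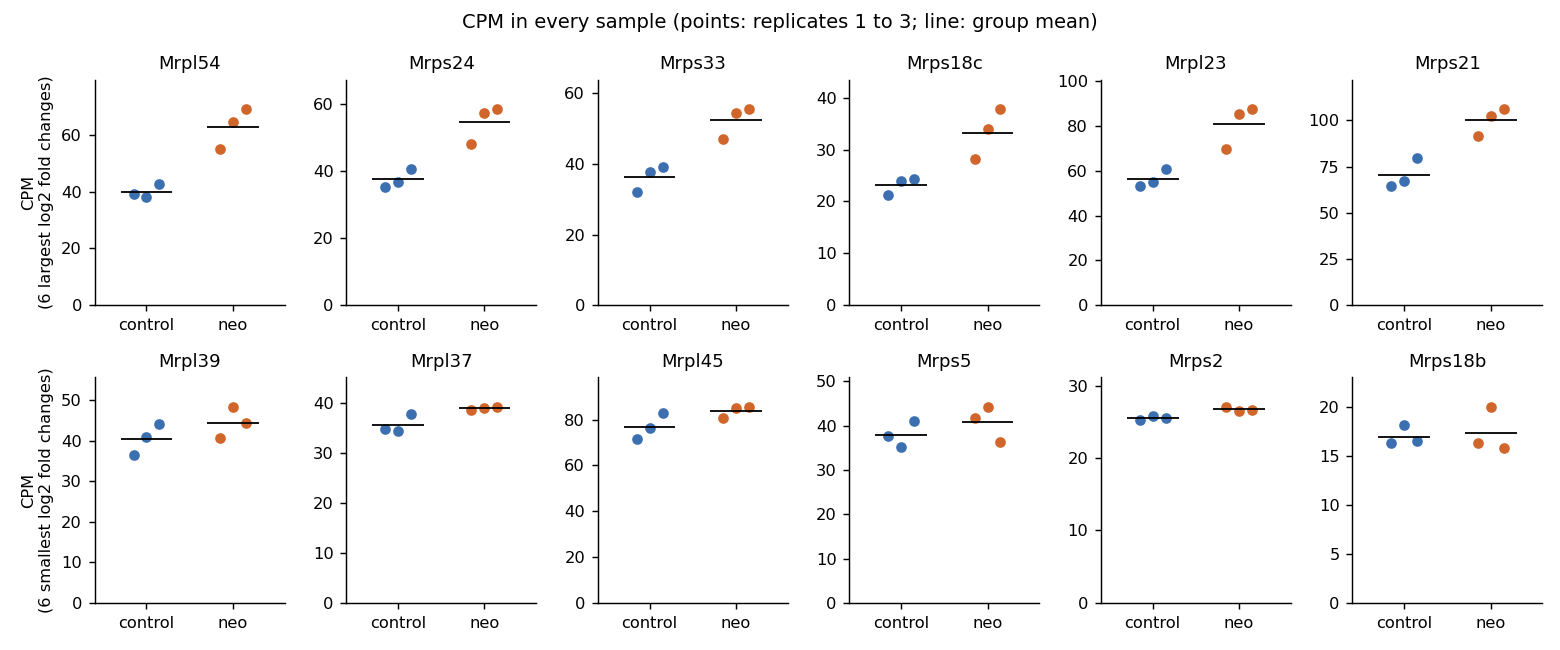
CPM (vertical axis, from 0) in each control and neomycin replicate for the 6 genes with the largest log2FC values (top) and the 6 with the smallest (bottom); lines are group means. The top genes do not overlap between groups, as for Mrpl54 with 38.0 to 42.8 CPM in control and 55.1 to 69.0 CPM after neomycin, whereas 4 of the bottom 6 overlap.

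Over the 77 genes, the log2FC fell with the length of the coding sequence, which ran from 195 to 1326 bases. The 26 genes of up to 480 bases had a median of 0.36 with 21 rising. The next 26 genes had 0.30 with 20 rising, and the 25 genes from 762 bases on had 0.22 with 13 rising. Spearman's rho across the 77 genes was -0.48 with coding length, -0.38 with transcript length and -0.05 with control CPM, as a description of genes that share the same 6 libraries. After transcript length correction the medians of these groups were 0.06, 0.10 and 0.10. For 45 genes no other annotated exon overlapped, and 33 of these rose with a median of 0.31. An annotated exon of another gene overlapped 27 members on the opposite strand and 8 on the same strand. Among the genes described above these include Mrpl18, Mrpl24, Mrpl27, Mrpl47, Mrps7 and Mrps18c, where the overlap was not named.

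Of the 54 genes that rose, 15 also rose under both length corrections, 8 Mrpl and 7 Mrps, and 8 rose in all 16 fits, which include the other tests, scalings and filters, the replicate block and each sample left out. These 8 were Mrpl11, Mrpl32, Mrpl48, Mrpl54, Mrps16, Mrps24, Mrps26 and Mrps33, and Mrpl32, Mrps16 and Mrps26 are named here after their values were seen. How many of all genes tested met the same conditions was not counted, so these counts have no background to be read against. Mrpl32, a protein that a mitochondrial protease trims before assembly, had 23.7, 25.5 and 29.5 CPM in control and 31.9, 36.4 and 38.9 CPM after neomycin (0.45 ± 0.10, adjusted p = 0.00727). Mrps16, the counterpart of S16, had 30.9, 35.6 and 37.6 CPM and then 43.2, 44.5 and 53.2 CPM (0.44 ± 0.10, adjusted p = 0.00658). Mrps26, with no bacterial counterpart, had 25.2, 26.1 and 27.3 CPM and then 32.3, 36.1 and 41.6 CPM (0.48 ± 0.10, adjusted p = 0.00352). An exon of 4930473A02Rik overlaps Mrps26 on the opposite strand. The groups of Mrpl32, Mrps16 and Mrps26 did not overlap. The 39 members not given by the choice stated in the methods had log2FC values from 0.15 for Mrpl49 to 0.50 for Mrpl33, with a median of 0.30. Of these 26 rose, and in 32 the groups did not overlap.

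Of 6 genes of the same ribosome under other symbols 5 rose and 0 fell, with a median log2FC of 0.37. Of all genes tested 12.9% rose and 16.1% fell. With exon length correction 6 rose and with transcript length correction 4, where 10.4% and 7.89% of all genes rose. Chchd1 had the largest rise, from 47.5, 53.8 and 58.9 to 70.4, 82.2 and 84.3 CPM (0.57 ± 0.09, adjusted p = 0.00116), followed by Aurkaip1, from 70.4, 72.7 and 82.2 to 91.3, 106 and 109.6 CPM (0.45 ± 0.09, adjusted p = 0.00310). Dap3, a GTP-binding protein of the small subunit, had 79.0, 87.2 and 93.8 CPM in control and 102, 97.0 and 106 CPM after neomycin (0.23 ± 0.08, adjusted p = 0.0436). Ict1, a peptidyl-tRNA hydrolase built into the large subunit, rose from 34.2, 34.8 and 42.7 to 45.1, 44.7 and 49.8 CPM (0.32 ± 0.09, adjusted p = 0.0228). The groups of these 4 did not overlap. Ptcd3, named because it was the 1 that did not pass, had 34.0, 34.6 and 34.9 CPM and then 36.7, 39.9 and 35.6 CPM (0.12 ± 0.08, adjusted p = 0.271), also without overlap.

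Of 29 genes for factors that build the mitochondrial ribosome 4 rose and 0 fell, with a median of 0.12. The 4 of 29 is near the 12.9% of all genes tested that rose. These genes are longer than the members, with a median transcript length of 1821 bases, and with transcript length correction their median was 0.06 and that of the members 0.09. The difference between the lists was not tested. Mterf4, which guides an rRNA methyltransferase to the large subunit, rose from 67.9, 60.7 and 56.5 to 88.5, 87.1 and 91.0 CPM (0.53 ± 0.08, adjusted p = 0.000589), and Ftsj2, an rRNA methyltransferase also named Mrm2, from 6.20, 8.65 and 8.45 to 10.9, 11.9 and 12.5 CPM (0.60 ± 0.14, adjusted p = 0.00799). Ngrn and the helicase gene Ddx28 rose by 0.31 and 0.29 on the log2 scale (adjusted p = 0.0120 and 0.0385). The remaining 25 assembly genes did not pass. With transcript length correction Mterf4 and Ftsj2 still passed, at 0.36 and 0.43, and Ngrn and Ddx28 did not (adjusted p = 0.203 and 0.0664).

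Of 14 translation factor genes 2 rose and 1 fell, with a median of 0.05, where 12.9% of all genes rose and 16.1% fell. Tsfm, the elongation factor Ts, had a log2FC of 0.34 ± 0.09 (adjusted p = 0.0165), and Mtif3, the initiation factor IF3, had 0.27 ± 0.09 (adjusted p = 0.0441). The gene that fell, 2810006K23Rik, also named Mtrfr and a member of the release factor family, went from 27.8, 27.2 and 29.4 to 22.5, 23.1 and 22.3 CPM (-0.32 ± 0.08, adjusted p = 0.0123). Of 20 genes that charge mitochondrial tRNAs 2 rose, Cars2 (0.39 ± 0.13, adjusted p = 0.0370) and Fars2 (0.29 ± 0.10, adjusted p = 0.0437), 0 fell, and the median was 0.05. With transcript length correction 0 genes of either list rose. Under it 2810006K23Rik had -0.45 (adjusted p = 0.000981) and the translation factor gene Taco1 -0.48 (adjusted p = 0.00767), where 1821 of 15863 genes fell. Before correction Taco1 had -0.29 and did not pass (adjusted p = 0.0591).

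Of 14 genes for transcription of mitochondrial DNA and its regulators 3 rose and 2 fell, with a median of -0.04. Of all genes tested 12.9% rose and 16.1% fell. Slirp and Lrpprc, whose products form a complex that keeps mitochondrial mRNAs stable, ran in opposite directions. Slirp had 30.7, 32.6 and 42.4 CPM in control and 49.4, 52.7 and 57.1 CPM after neomycin (0.59 ± 0.11, adjusted p = 0.00252), and Lrpprc had 47.6, 51.0 and 50.6 CPM and then 46.1, 41.6 and 40.9 CPM (-0.21 ± 0.08, adjusted p = 0.0484). Mterf2 rose (0.42 ± 0.12, adjusted p = 0.0254), and Pprc1, a coactivator related to PGC-1, fell (-0.39 ± 0.09, adjusted p = 0.00920). With transcript length correction Slirp kept 0.47 (adjusted p = 0.00329) and Lrpprc came to -0.07 (adjusted p = 0.553), while Mterf2 and Pprc1 no longer passed (adjusted p = 0.153 and 0.201). Nrf1, at -0.21 before correction (adjusted p = 0.0657), was then lower, at -0.28 (adjusted p = 0.0147).

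Of 20 genes that follow the amount of mitochondria, for porins, import, chaperones and carriers, 2 rose and 1 fell, with a median of 0.09, where 12.9% of all genes rose and 16.1% fell. Vdac3, a porin of the outer membrane, and Tomm22, an import receptor, rose by 0.33 and 0.30 on the log2 scale (adjusted p = 0.0138 and 0.0153). Neither passed with transcript length correction (adjusted p = 0.124 and 0.443). Cs, citrate synthase, went from 224, 225 and 232 to 196, 194 and 191 CPM (-0.23 ± 0.07, adjusted p = 0.0238). With transcript length correction the list median was -0.03, and Cs kept -0.20 (adjusted p = 0.0214). Timm23 and Vdac1 were then lower, at -0.44 and -0.21 (adjusted p = 0.00237 and 0.0203), and Tomm70a higher, at 0.26 (adjusted p = 0.0441). Of 12 genes tied to hereditary deafness with a mitochondrial defect or to 12S rRNA maturation, Mrps2 and Mrps7 among them, 1 rose and 0 fell, with a median of 0.06. It was Clpp, the mitochondrial protease subunit, with a log2FC of 0.33 ± 0.09 (adjusted p = 0.0153), and 0.06 with transcript length correction (adjusted p = 0.501).

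**Figure D5:**
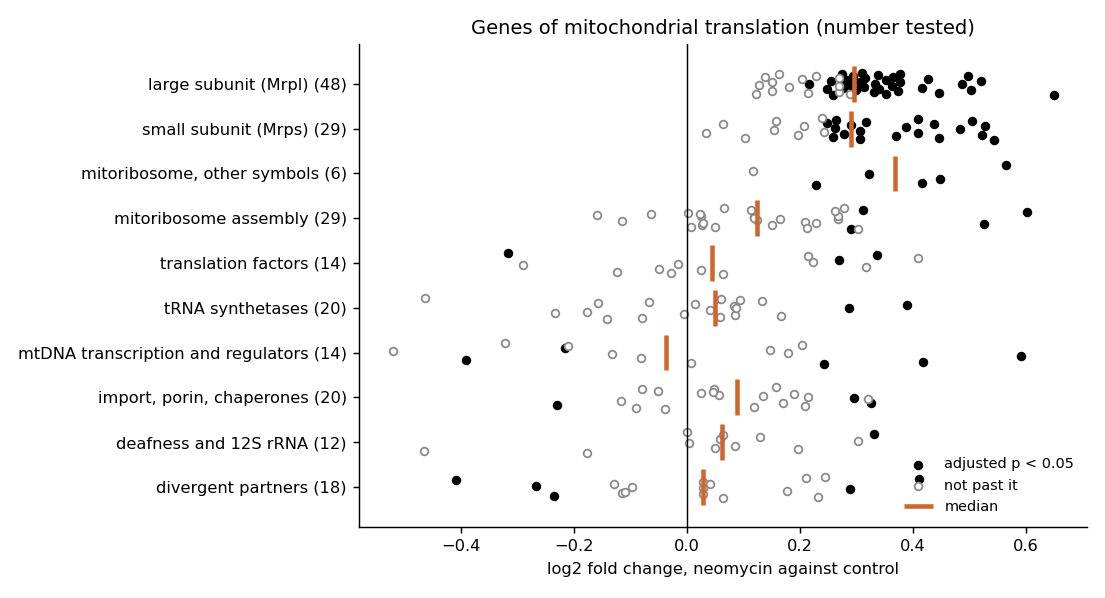
Log2 fold change (horizontal axis) of each tested gene in lists of the mitochondrial ribosome and its partners (rows, number tested in brackets), filled where the adjusted p-value was under 0.05, with the list median as an orange line. Ribosomal protein lists have medians of 0.29 to 0.37, and the assembly, factor, tRNA, transcription and mitochondrial mass lists have medians between -0.04 and 0.12.

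Short nuclear genes of other large complexes gave values like those of the mitochondrial ribosome. Of 82 cytosolic ribosomal protein genes tested 46 rose and 0 fell, with a median log2FC of 0.35 and a median transcript length of 772.5 bases. Of 82 nuclear genes for subunits of the respiratory chain and ATP synthase 54 rose and 0 fell, with a median of 0.33 and a median length of 746 bases. Of all genes tested 12.9% rose and 16.1% fell. With transcript length correction 3 of the cytosolic and 8 of the respiratory genes rose, where 7.89% of all genes rose. Their medians were then 0.04 and -0.0024. The mitochondrial ribosomal protein genes, at 0.09 with 19 rising, were longer. These lists were not tested against each other.

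In 18 cases another gene starts on the opposite strand within 1000 bases of the start of a member. Of these 18 partners 2 rose and 3 fell, near the 12.9% and 16.1% of all genes tested, with a median log2FC of 0.03, while all 18 members were above 0. Apba3 starts 26 bases from Mrpl54 and had a log2FC of 0.07 (adjusted p = 0.516) against 0.65 for Mrpl54. Helq starts 29 bases from Mrps18c and had 0.03 (adjusted p = 0.903) against 0.52. Ppp1r10, 45 bases from Mrps18b, fell by 0.41 on the log2 scale (adjusted p = 0.00156) beside the 0.03 of Mrps18b. The partners are longer, with a median transcript length of 2595 bases, and after transcript length correction their median was -0.01 with 1 rising. They are named as the partners of members described above, and the differences were not tested.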

How the data were processed

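RNA was measured by mRNA sequencing in 3 control and 3 neomycin samples of mouse cochlear explants, grouped by their labels. The deposited values are counts of reads for each gene symbol, not normalized by the authors. Per the labels and methods, reads were called with CASAVA 1.8, trimmed with Trimmomatic 0.23, aligned to mm10 with HISAT2 and counted with HTSeq; strand setting and annotation date are not given in the sources used here. The authors' own test was DESeq2.

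From the counts, genes were filtered with filterByExpr, scaled by TMM and tested with glmQLFit and glmQLFTest in edgeR 4.0.16 under R 4.3.3, without a block, with Benjamini-Hochberg adjustment over all 15988 genes tested. A gene rose or fell at an adjusted p-value under 0.05. CPM are read counts put on 1 library size with the TMM factors, and log2 CPM used a prior count of 2. Errors of log2 fold changes are standard errors. Positions, overlaps and lengths came from GENCODE M21 on the same build, which held 23376 symbols directly and 670 under an older symbol. Length was corrected by removing from each sample the lowess trend (span 0.3) of its log2 ratio to the mean of all samples on log2 length, for 99.2% of the genes tested. Alternatives were DESeq2 1.42.0, limma-voom (limma 3.58.1), other scalings, filters and thresholds, the replicate number as a block and each sample left out. The replicates differed beyond sampling noise, the chi-square for their counts averaging 13.8 to 46.8 over genes between samples of a group. On simulated data of 15856 genes for this comparison, edgeR called 40 of 50 genes raised 2-fold and 6 of 50 raised 1.25-fold. It called 3 of 15656 unchanged genes. Only 200 genes were changed there, where 2058 rose and 2571 fell in the 6 samples. Whether these rates hold for the calls given above was not tested.

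Genes named are the 6 members with the largest and the 6 with the smallest log2 fold change, members with a known place in the ribosome, and up to 4 genes of each other list that passed. The members and lists were chosen with earlier results of these data known. Plots were made in Python 3.11.15 with matplotlib 3.10.9. Protein sequences and mitochondrially encoded RNAs were not analysed here.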

Additional observations from a re-analysis of the deposited data

How the results depend on the processing

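The number of mitochondrial ribosomal protein genes that rose, 54, was 58 with DESeq2, 56 with limma-voom and 60 with upper-quartile scaling. Of all genes tested, 2313 of 19820, 2094 of 15988 and 2305 of 15988 rose in these fits. With library totals alone 36 members rose, where 1349 of 15988 genes rose and the median log2FC of all genes was -0.07. Without a filter on low counts 55 members rose, where 2053 of 19825 genes rose. At an adjusted p-value under 0.01 the number was 24, and the count over all genes is not given here. With a sample left out, 1007 to 2578 of all genes tested rose. Among the members, each sample left out in turn gave 23 to 62 that rose and 0 to 6 past a fold change of 1.5. That last count, 1, was 0 with library totals alone, 30 at the lower fold change tried and 0 at a fold change over 2. With exon length correction 30 rose and the medians were 0.160 for all members, 0.103 for the large and 0.201 for the small subunit, and the difference between subunits was -0.0234. With transcript length correction, added after the data were seen, 19 rose and the medians were 0.0886, 0.0738 and 0.0931. Both corrections remove a trend on length by construction. What moved the counts and medians was not tested, nor whether the trend is biological or technical.

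With the replicate number as a replicate block, 65 rose, where 2785 of all genes tested rose. None of the 38 named members lost its call (other named genes were not looked up in that fit). With exon length correction and the replicate block 33 rose and 1 fell, where 2178 of all genes rose and 2481 fell. The medians of the members were 0.157, 0.101 and 0.202, with a subunit difference of -0.0234. The check made does not settle whether the numbers pair the samples. Deviations from the group means correlated at 0.17, 0.03 and 0.09 for numbers 1, 2 and 3. Between unlike numbers they correlated at -0.13 to 0.03. Each neomycin replicate correlated best with the control of its own number, but control replicate 2 correlated best with neomycin replicate 3.

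Of the 38 named members, 8 changed sign under some alternative. Under exon length correction with the block, without it, and under transcript length correction the log2 fold change of Mrps18b was -0.144, -0.139 and -0.247, that of Mrps2 -0.0240, -0.0242 and -0.00561, that of Mrps12 -0.0802, -0.0804 and -0.0641, and that of Mrpl10 -0.00409, -0.00383 and -0.000325. Mrpl22 had -0.00259 and -0.00356 in the first pair of these. Under transcript length correction alone Mrpl37 had -0.0367, Mrps18a -0.0173 and Mrpl38 -0.0307. With library totals alone Mrps18b had -0.0353 and Mrps2 -0.00448, and with each sample left out in turn Mrps18b lay between -0.0792 and 0.0984.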
